A study of Mus musculus with 6 samples.

Results

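The Sec61 translocon is the channel through which secretory and membrane proteins enter the endoplasmic reticulum (ER), and the translocon-associated protein (TRAP) complex sits beside it at the ribosome. The 10 genes described here encode the Sec61 subunits (Sec61a1, Sec61b, Sec61g), the accessory translocation proteins Sec62 and Sec63, the TRAP subunits (Ssr1, Ssr2, Ssr3, Ssr4) and the translocating chain-associated protein (Tram1). They were chosen by name, and all 10 were among the 22180 genes measured by a transcript cluster, a group of array probes, with exactly 1 gene symbol. Where a gene had several such clusters, the brightest over all 6 arrays was used.

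Total RNA came from the whole pancreas of 6-month-old male mice, with 3 Pdx1Cre animals as controls and 3 Pdx1Cre;Sirt1ex4F/F animals, referred to as Sirt1-deficient, on 1 GeneChip Mouse Gene array per pancreas. Both groups carried the Pdx1Cre transgene (strain B6.FVB-Tg(Ipf1-cre)6Tuv/J). The methods describe the controls as wild type at Sirt1. The Sirt1-deficient mice also carried 2 copies of the conditional allele Sirt1tm1Ygu, whose exon 4 is deleted by Cre in endocrine and exocrine pancreatic cells. The allele came from a separate strain that was bred to the Cre strain. The methods do not say how alike the groups were in background. The study describes the activity of this Cre, driven by a Pdx1 promoter fragment, as mosaic, above all in exocrine tissue. Vessels, nerves and blood cells of the organ lie outside this deletion. The comparison asked which transcripts differ in the pancreas when Sirt1, a protein deacetylase, lacks part of its catalytic domain.

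A signal peptide or transmembrane segment that emerges from the ribosome is handed by the signal recognition particle (SRP) to its receptor and then to the Sec61 channel. The channel is a heterotrimer: the alpha subunit forms the pore, and the small beta and gamma subunits are anchored at its side. TRAP helps weak signal peptides, that of insulin among them, to open the channel, and TRAM1 lies next to the entering chain. Sec62 and Sec63 serve precursors that cross after or late in synthesis, and Sec63 recruits the lumenal chaperone BiP to the channel. The pancreas depends on this route more than most organs, since acinar cells export digestive enzymes and beta-cells export insulin.

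The deposited values were log2 expression values in which the array had been background-corrected and brought to a common distribution. All 13 acinar markers that were measured, out of 16 listed, lay above 4.66, the 95th percentile of the mean values of olfactory receptor genes, which served as the level of dim genes. Their summed log2 values were 157.4 to 157.6 in controls and 157.8 to 157.9 in Sirt1-deficient samples. Sirt1 itself differed by -0.11 on the log2 scale (5.81 ± 0.03 against 5.70 ± 0.12, SD, n = 3 each; limma p = 0.343, exact permutation p = 0.3). Its cluster summarizes the whole gene and does not separate exon 4, so it does not check the labels. By RT-qPCR, the study reported reduced Sirt1 transcript in total pancreas and in islets, at primer positions it does not give. By western blot, it reported a smaller Sirt1 protein in total pancreas of 6-month-old Sirt1-deficient mice. The array difference did not pass. Nothing in the labels says more of the animals than their separate numbers, and in whole pancreas fewer cells of a type and less RNA per cell cannot be told apart.

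None of the 10 translocon and TRAP genes passed at an unadjusted p under 0.01, the threshold of the study's methods, in either direction (limma), against 1.63% of all genes tested (0.739% higher and 0.888% lower). None passed at an unadjusted p under 0.05 either, against 6.66% of all genes, nor after Benjamini-Hochberg adjustment (smallest adjusted p = 0.817), where 0.0135% of all genes passed. The means of 7 members were lower and those of 3 were higher in the Sirt1-deficient pancreata. Their median log2 fold change was -0.033, beside -0.017 over all genes, of which 54.9% had a negative value. The differences ranged from -0.19 for Ssr2 to 0.04 for Sec62 and Tram1. The 95% intervals of the members reached from -0.43 to 0.29 at their widest, so that a level below 0.743 or above 1.22 of the control lay outside the interval of every member.

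**Figure D1:**
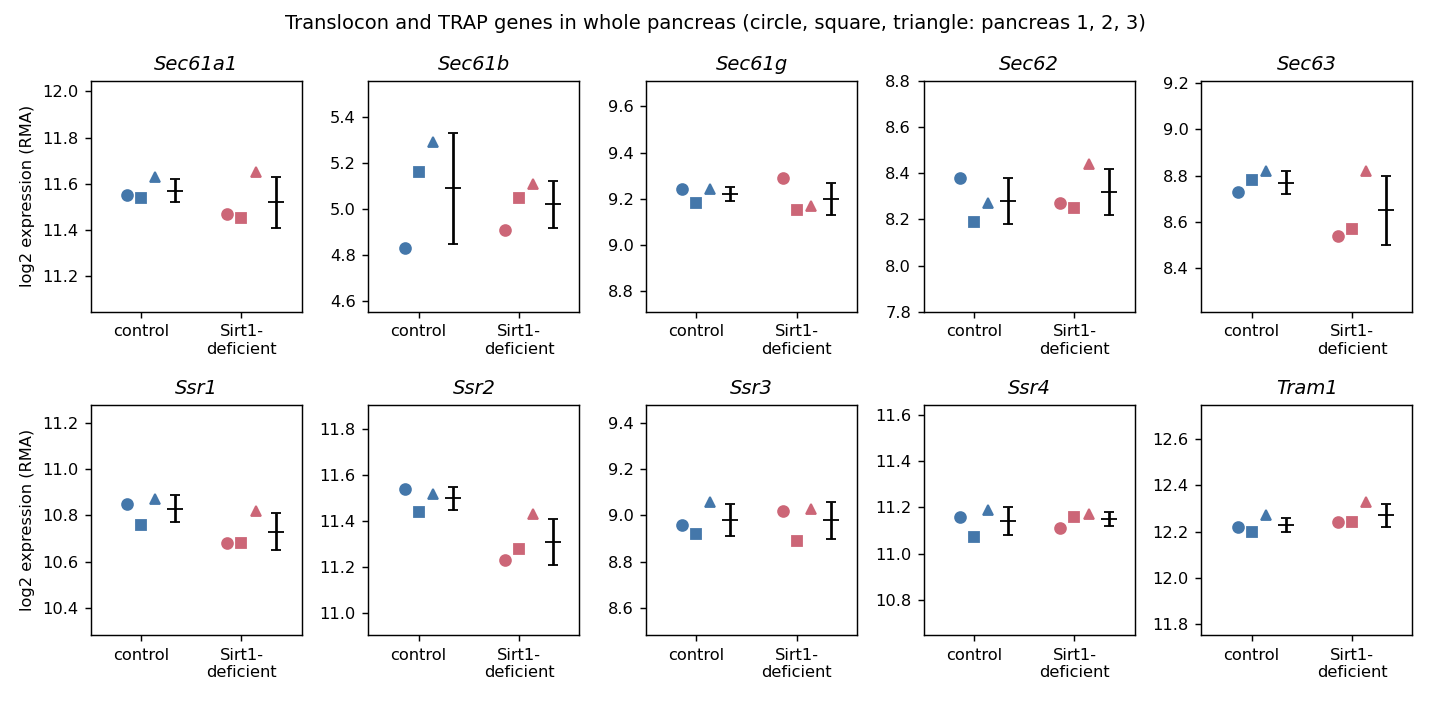
Each panel plots the log2 expression of 1 gene in the 3 control (blue) and 3 Sirt1-deficient (red) pancreata, with the mean and SD in black, and every panel spans 1 log2 unit. The groups overlap for every gene except Ssr2, whose control pancreata sit between 11.44 and 11.54 and whose Sirt1-deficient pancreata sit between 11.23 and 11.43.

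Sec61a1, the pore-forming subunit, had control values of 11.55, 11.54 and 11.63 and Sirt1-deficient values of 11.47, 11.45 and 11.65. The highest and the lowest value both came from the Sirt1-deficient group. Its log2 fold change was -0.05 (95% interval -0.29 to 0.18, limma p = 0.627; 2-sided exact permutation p = 0.6). With single arrays left out it ran from -0.12 (without the Sirt1-deficient pancreas 3) to -0.02 (without the Sirt1-deficient pancreas 2) and did not pass.

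Sec61g, the small gamma subunit that clamps the pore, showed no separation, with 9.24, 9.18 and 9.24 in the controls against 9.29, 9.15 and 9.17. Its difference of -0.01 had an interval of -0.24 to 0.21. Another cluster, which the annotation assigns to Sec61g and 4 predicted genes at once, read 6.10 ± 0.12 (SD, n = 3) and 6.05 ± 0.15 (SD, n = 3). Because sequence is shared there, it was not counted as Sec61g.

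Sec61b, the beta subunit, was the dimmest and the most variable of the 10. Its control values of 4.83, 5.16 and 5.29 spread over the whole range of the Sirt1-deficient values of 4.91, 5.05 and 5.11. The log2 fold change was -0.07 (95% interval -0.38 to 0.24), the widest interval of the family. A cluster of the same gene that was not used lay below the dim level, at 3.95 ± 0.10 and 4.13 ± 0.09 (SD, n = 3 each), with a difference of 0.18 (limma p = 0.151, exact permutation p = 0.2). The clusters pointed in opposite directions, and with their mean the log2 fold change of Sec61b was 0.06.

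Sec62, an accessory subunit of the channel, had control values of 8.38, 8.19 and 8.27 and Sirt1-deficient values of 8.27, 8.25 and 8.44. The groups overlapped almost fully and the difference was 0.04 (95% interval -0.21 to 0.29).

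Its partner Sec63, the J-domain protein that recruits BiP, read 8.73, 8.78 and 8.82 in controls against 8.54, 8.57 and 8.82 in Sirt1-deficient samples. Here 2 Sirt1-deficient pancreata lay below every control and the third lay at the top of the range. The log2 fold change was -0.13 (95% interval -0.38 to 0.13, limma p = 0.287; exact permutation p = 0.4). Without the Sirt1-deficient pancreas 3 it was -0.22 and still did not pass.

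Among the TRAP subunits, Ssr2 (TRAP beta) gave the largest difference of the family. It read 11.54, 11.44 and 11.52 in the control pancreata (mean 11.50 ± 0.05, SD, n = 3). The Sirt1-deficient pancreata read 11.23, 11.28 and 11.43 (mean 11.31 ± 0.10, SD, n = 3). All 3 lay below all controls, although the nearest values of the groups were close together. The log2 fold change was -0.19 (standard error 0.11, 95% interval -0.43 to 0.05), a 1.14-fold lower mean that did not pass (limma p = 0.102, adjusted p = 0.817; exact permutation p = 0.1, the smallest that 3 against 3 arrays allow). Ssr2 was the 1 member whose groups did not overlap, a state found in 11.7% of all genes and, in this direction, in 6.51%. When the variance was allowed to follow the intensity and was moderated robustly, the interval of Ssr2 was -0.33 to -0.05 (limma p = 0.0114, adjusted p = 0.532, beside the exact permutation p = 0.1), still short of the threshold.

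Ssr1 (TRAP alpha) had control values of 10.85, 10.76 and 10.87 and Sirt1-deficient values of 10.68, 10.68 and 10.82. As for Sec63, Sirt1-deficient pancreata 1 and 2 lay below every control and pancreas 3 lay among them. The difference was -0.10 (95% interval -0.33 to 0.13, limma p = 0.35; exact permutation p = 0.2). A dimmer Ssr1 cluster read 5.62 ± 0.13 and 5.64 ± 0.32 (SD, n = 3 each), a difference of 0.02.

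Ssr3 (TRAP gamma) was level between the groups, at 8.98 ± 0.07 against 8.98 ± 0.08 (SD, n = 3 each). Control values were 8.96, 8.92 and 9.06 and Sirt1-deficient values 9.02, 8.89 and 9.03. Its 95% interval ran from -0.24 to 0.23.

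Ssr4 (TRAP delta) gave 11.14 ± 0.06 and 11.15 ± 0.03 (SD, n = 3 each), a difference of 0.01 (95% interval -0.22 to 0.23), with all 6 values between 11.07 and 11.19. The 4 subunits of the complex therefore ranged from -0.19 to 0.01 on the log2 scale. Of the 4, 3 lay below 0, Ssr3 at -0.00242 among them, beside 54.9% of all genes. No difference between subunits was tested.

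Tram1 varied little, with control values of 12.22, 12.20 and 12.27 and Sirt1-deficient values of 12.24, 12.24 and 12.33. Its log2 fold change was 0.04 (95% interval -0.18 to 0.26, limma p = 0.695; exact permutation p = 0.4). With the intensity-dependent variance the interval was -0.07 to 0.15.

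**Figure D2:**
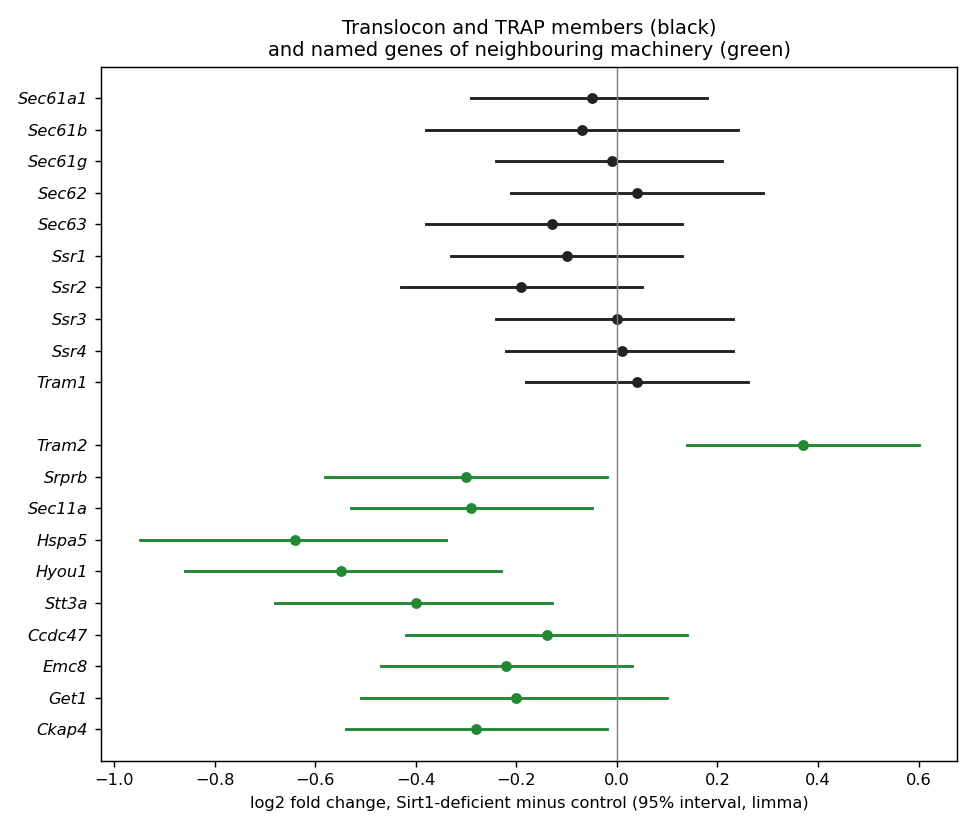
Points give the log2 fold change, Sirt1-deficient minus control, and lines its 95% interval from limma, for the 10 members (black) and for the genes of neighbouring machinery named by rule (green). The intervals of all 10 members include 0. Those of Hspa5 (-0.95 to -0.34), Hyou1 (-0.86 to -0.23), Stt3a (-0.68 to -0.13) and Tram2 (0.14 to 0.60), which passed, and of Srprb (-0.58 to -0.02), Sec11a (-0.53 to -0.05) and Ckap4 (-0.54 to -0.02), which did not pass, exclude 0.

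Averaged over the 10 members, the spread between the pancreata of a group was larger than the difference between the groups. Each gene was centred on its own mean and the 10 were averaged. The averages were 0.007, -0.013 and 0.077 for controls 1 to 3 and -0.062, -0.067 and 0.058 for Sirt1-deficient pancreata 1 to 3. Sirt1-deficient pancreas 3 lay above the other Sirt1-deficient pancreata in 9 of the 10 genes, Sec61g being the exception. The control pancreas 2 was the lowest control in 8 of the 10, all but Sec61b and Sec63. Sec61a1 followed the average of the members most closely (root mean square difference 0.022), and Sec61b least (0.132). Macrophage markers, with 7 of 7 measured and all above the dim level, were also highest in pancreas 3 within the Sirt1-deficient group, at centred means of -0.266, -0.167 and 0.212 and summed log2 values of 41.2 to 44.5, against 43.0 to 44.0 in the controls. Controls 1 to 3 gave 0.138, 0.090 and -0.008, lowest in control 3, where the members were highest. The 7 fibroblast and stellate cell markers likewise gave -0.186, -0.142 and 0.087, with sums of 46.9 to 48.8 against 48.5 to 49.1, and 0.086, 0.123 and 0.033 in the controls, again lowest in control 3. Endothelial, lymphoid and adipocyte markers were highest in control 3 among the controls and in pancreas 3 among the Sirt1-deficient samples. The members' average was too, and the shared number is not shown to pair these animals. Endothelial markers gave -0.140, -0.205 and 0.049 in controls 1 to 3 and 0.092, 0.080 and 0.124 in the Sirt1-deficient pancreata. Of 7 lymphoid markers, 1 lay above the dim level. Beta-cell and other endocrine markers were highest in control 3 and lowest in Sirt1-deficient pancreas 3. Acinar and duct markers were highest in Sirt1-deficient pancreas 3 but not in control 3. The part of other cell types in the members' profile was not tested.

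**Figure D3:**
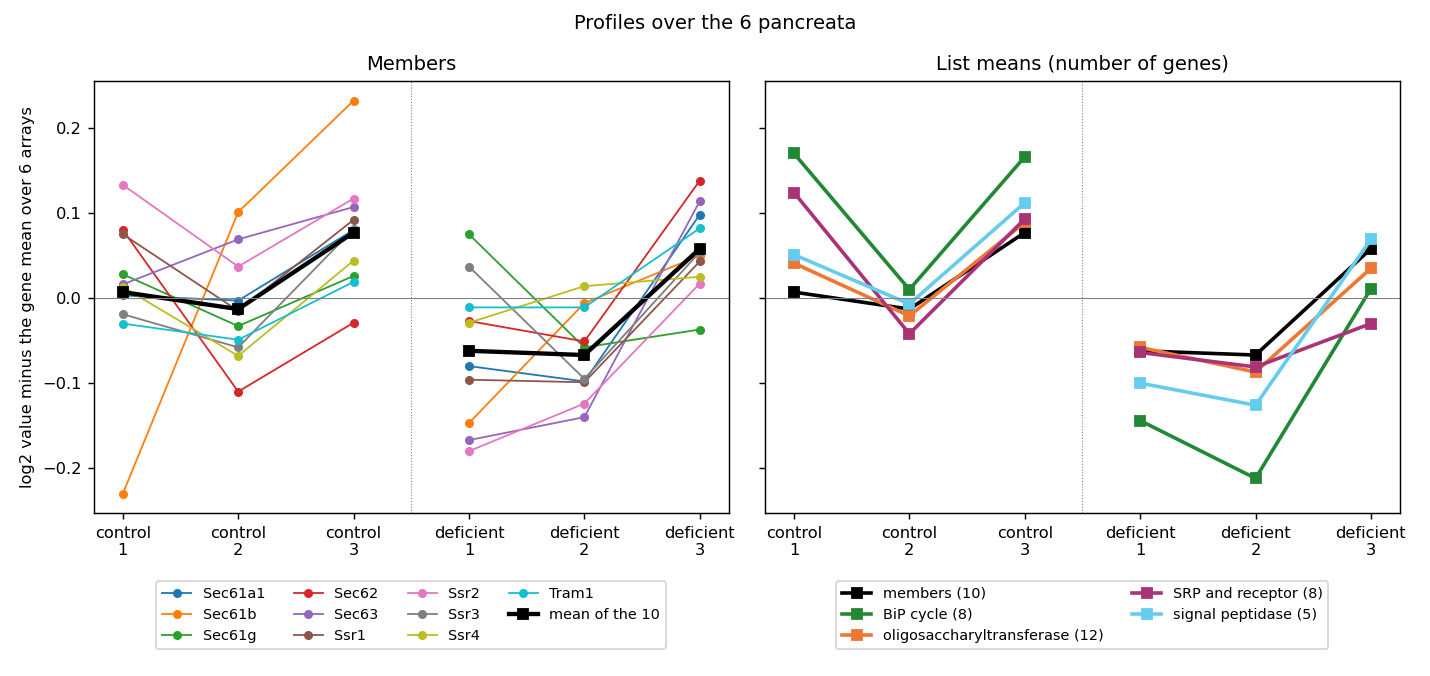
The vertical axis gives log2 values minus each gene's mean over the 6 arrays for the members and their mean (left) and for the means of 5 gene lists (right). Lines join the values of 1 gene or list within a group, and replicates have no order. The members' mean lies between -0.067 and 0.077 and overlaps between the groups. The BiP cycle list lies between 0.010 and 0.170 in the controls and between -0.212 and 0.011 in Sirt1-deficient samples. Its groups also overlap, by a small margin.

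The genes whose centred profile lay nearest to the members' average, among 11656 genes above the dim level, were Chchd5, a mitochondrial protein, Zdhhc3, a Golgi palmitoyltransferase, Stx7, an endosomal syntaxin, Sgpp1, an ER phosphatase of sphingosine phosphate, and Map7, a microtubule-associated protein. Their root mean square differences over the 6 arrays were 0.0090, 0.0115, 0.0121, 0.0170 and 0.0178, beside 0.0546 for the size of the average profile itself. Their log2 fold changes, between -0.07 and -0.03, follow from this choice.

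The machinery around the channel was read from 9 further lists with 63 measured genes. At an unadjusted p under 0.01 (limma), 3 of these genes were lower, 1 was higher and 59 did not pass, that is 6.35% beside 1.63% of all genes. None passed after adjustment over all genes. The lists were written with earlier results of these arrays known, so their counts are descriptions. In the same contrast 3 of 17 immediate-early genes were lower, none was higher and all 17 differences were negative, with summed log2 values of 104.8 to 111.1 in controls against 100.7 to 101.6 in Sirt1-deficient samples. Of 67 measured markers of 9 cell types, 2 islet markers were lower and 1 endothelial marker was higher. The part of either in the machinery's counts was not tested. The genes that passed were a paralog of a member, 2 genes of the BiP cycle and a subunit of the oligosaccharyltransferase.

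Tram2, a paralog of Tram1 that has been linked to collagen synthesis, was the gene that rose. Control values were 6.66, 6.61 and 6.64, and Sirt1-deficient values 7.00, 6.93 and 7.09. Every Sirt1-deficient pancreas lay well above every control. The difference was 0.37 on the log2 scale (SE 0.10), 1.29-fold higher (limma p = 0.00501, adjusted p = 0.545; exact permutation p = 0.1). With single arrays left out it passed only when that array was the Sirt1-deficient pancreas 2. It did not pass without the control pancreas 1, 2 or 3 (0.38, 0.36 and 0.37), nor without the Sirt1-deficient pancreas 1 or 3 (0.37 and 0.33). The other paralogs, Sec61a2 and Tram1l1, did not pass.

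Hspa5, which encodes BiP, the chaperone that Sec63 recruits to the lumenal side of the channel, was lower. Its values were 10.11, 9.87 and 10.04 in controls and 9.33, 9.16 and 9.60 in Sirt1-deficient samples. The difference was -0.64 (95% interval -0.95 to -0.34; limma p = 0.00093, adjusted p = 0.28, exact permutation p = 0.1). With single arrays left out, Hspa5 passed the unadjusted threshold in 6 of 6 fits (-0.76 to -0.54). Hyou1, a nucleotide exchange factor for BiP, was lower by -0.55 (95% interval -0.86 to -0.23, limma p = 0.0033, exact permutation p = 0.1). With single arrays left out it passed in 2 of 6 fits, and not without control 1 or 3 (-0.54 and -0.48) or Sirt1-deficient pancreas 1 or 2 (-0.55 and -0.43). The other 6 genes of this list, co-chaperones of BiP and Sil1, did not pass. Of these, Dnajb11 had the smallest p (-0.30, 95% interval -0.58 to -0.01, limma p = 0.0412, exact permutation p = 0.1). Sec63 itself differed by -0.13, and the upper part of the Hspa5 interval overlapped the lower part of the intervals of Ssr2, Sec61b and Sec63. The difference between Hspa5 and the members was not tested.

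Of 12 subunits of the oligosaccharyltransferase, which adds N-glycans to chains as they leave the channel, Stt3a, the catalytic subunit that works at the translocon, was lower (-0.40, 95% interval -0.68 to -0.13, limma p = 0.00925, exact permutation p = 0.1). It passed in 2 of 6 fits with an array left out, and not without control 1 or 3 (-0.37 and -0.38) or Sirt1-deficient pancreas 1 or 2 (-0.33 and -0.37). The other 11 subunits did not pass, and the median of the 12 was -0.065.

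None passed of 8 measured genes of SRP and its receptor, which act before the channel, nor of the 5 subunits of signal peptidase, which cleaves signal peptides once the chain has entered. Srprb, the membrane-anchored receptor subunit, had the smallest p of its list, with control values of 9.21, 9.09 and 9.31 and Sirt1-deficient values of 8.88, 8.74 and 9.10 (log2 fold change -0.30; limma p = 0.0393, exact permutation p = 0.2). Sec11a, a catalytic subunit of signal peptidase, read 7.37, 7.33 and 7.36 against 7.00, 7.00 and 7.20 (-0.29; limma p = 0.022, exact permutation p = 0.1), with no overlap. Ckap4, an ER sheet protein, had -0.28 (limma p = 0.0388, exact permutation p = 0.1) among 4 ribosome-binding ER membrane proteins. No gene of the multipass translocon (6 measured), the ER membrane protein complex (10) or the tail-anchored insertion routes (7) passed, and their smallest p-values were those of Ccdc47 (-0.14, adjusted p = 0.897), Emc8 (-0.22, adjusted p = 0.783) and Get1 (-0.20, adjusted p = 0.852).

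**Figure D4:**
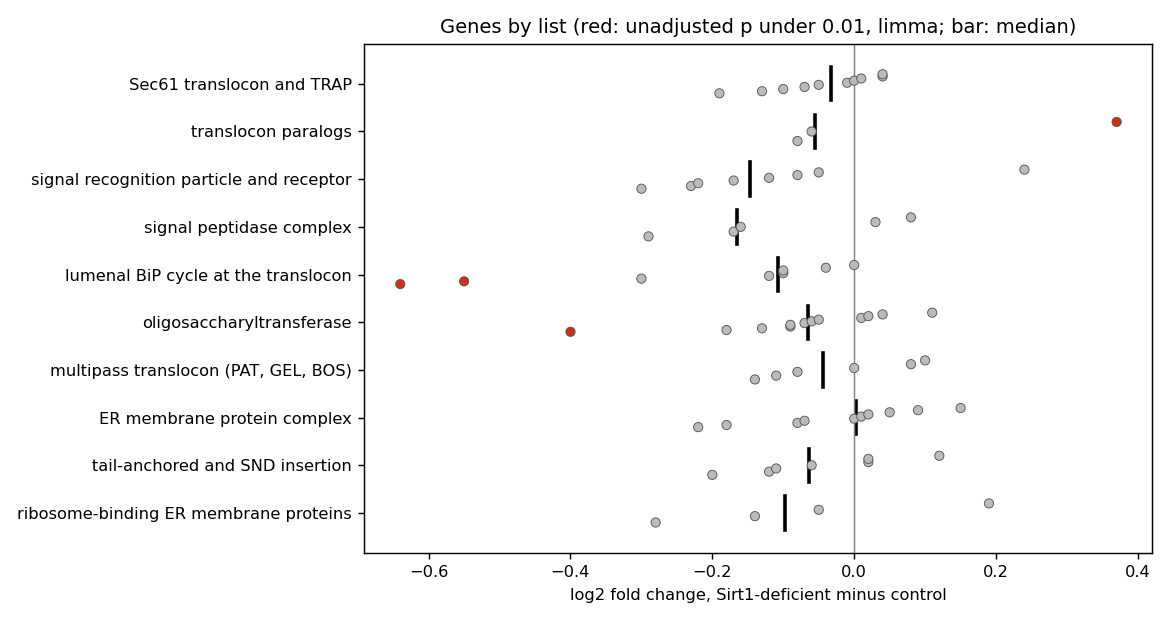
Each point is the log2 fold change of 1 gene, Sirt1-deficient minus control, with lists in rows, list medians as black bars and genes at an unadjusted p under 0.01 in red. The 10 translocon and TRAP genes lie between -0.19 and 0.04 with none in red, and the 4 red genes are Tram2 at 0.37, Hspa5 at -0.64, Hyou1 at -0.55 and Stt3a at -0.40.

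The unfolded protein response acts on promoters through the ER stress response element (ERSE, CCAAT and CCACG with 9 bases of any kind between), its shorter form ERSE-II (ATTGG and CCACG with 1 base between) and the core of the unfolded protein response element (TGACGTG). These letters were searched on both strands of the RefSeq promoter windows (assembly GRCm38.p6), which hold 250 bases before and 50 after each transcript start. Of the members, 7 had a window, namely Sec61b, Sec61g, Sec62, Sec63, Ssr1, Ssr3 and Ssr4. None of the 7 held any of the 3 elements, which were present in 0.119%, 0.0365% and 2.01% of 32851 windows. The window of Hspa5 held an ERSE and a TGACGTG. The bases upstream of the start of Hspa5, at chr2:34771840-34772089 on the plus strand, are shown because they carry both elements, in capitals:
Hspa5: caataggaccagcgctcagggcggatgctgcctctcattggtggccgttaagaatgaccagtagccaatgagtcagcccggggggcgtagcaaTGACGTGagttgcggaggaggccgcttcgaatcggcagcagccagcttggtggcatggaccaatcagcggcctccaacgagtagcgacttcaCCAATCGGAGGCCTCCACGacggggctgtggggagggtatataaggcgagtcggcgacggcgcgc

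Of the surrounding machinery, 50 genes had a window, 57 windows in all, and 2 of the genes held an ERSE, 2 an ERSE-II and 4 a TGACGTG, Hspa5 included. The TGACGTG matches besides Hspa5 lay in the windows of Srpr, the SRP receptor alpha subunit (chr9:35211190-35211196), Lrrc59, a ribosome-binding ER membrane protein (chr11:94629762-94629768), and Rab5if, of the multipass translocon (chr2:156863085-156863091). The longer elements were also found in the windows of Dnajc3, a BiP co-chaperone (ERSE, chr14:118937827-118937845), Dnajb11, another BiP co-chaperone (ERSE-II, chr16:22857852-22857862), and Krtcap2, an oligosaccharyltransferase subunit (ERSE-II, chr3:89246490-89246500), all on the plus strand. Both ERSE-II matches lay after the transcript start, and the ERSE matches of Hspa5 and Dnajc3 lay before it. The longer elements are shown with their fixed letters in capitals:
Hspa5 ERSE: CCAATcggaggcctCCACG
Dnajc3 ERSE: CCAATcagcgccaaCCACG
Dnajb11 ERSE-II: ATTGGcCCACG
Krtcap2 ERSE-II: ATTGGaCCACG
Of the 7 machinery genes with a match, Hspa5 passed the threshold. Dnajc3, Dnajb11 and Krtcap2 did not, with log2 fold changes of -0.10, -0.30 and -0.05, nor did Srpr, Lrrc59 and Rab5if, at -0.08, -0.14 and 0.08. Stt3a (-0.40) and Tram2 (0.37) passed, and their windows held none of the 3 elements. Hyou1 (-0.55) also passed and was not among the genes with a match. Whether it had a window is not given here.

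The last 5 letters of ERSE, CCACG, were searched alone after the result for the full elements was seen. They occurred in the windows of 3 of the 7 members, Sec63, Ssr1 and Ssr3, and in 32.8% of all windows. Of the 50 machinery genes with a window, counted by gene over 57 windows, 37 held them. The 250 bases before the start are shown for these 3 members, so that they can be set beside Hspa5, with CCACG or its reverse complement in capitals. They lie at chr13:37994209-37994458 (minus strand, Ssr1), chr3:65392554-65392803 (minus strand, Ssr3) and chr10:42761246-42761495 (plus strand, Sec63):
Ssr1: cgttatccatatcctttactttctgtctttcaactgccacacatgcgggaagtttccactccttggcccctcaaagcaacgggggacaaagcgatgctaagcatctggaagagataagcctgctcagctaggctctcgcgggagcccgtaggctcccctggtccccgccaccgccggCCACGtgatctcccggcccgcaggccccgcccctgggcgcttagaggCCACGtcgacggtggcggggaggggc
Ssr3: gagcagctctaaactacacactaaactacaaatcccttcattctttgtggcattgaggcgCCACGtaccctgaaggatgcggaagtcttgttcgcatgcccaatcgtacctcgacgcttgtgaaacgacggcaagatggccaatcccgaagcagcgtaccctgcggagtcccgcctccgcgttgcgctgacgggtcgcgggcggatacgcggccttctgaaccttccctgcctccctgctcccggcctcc
Sec63: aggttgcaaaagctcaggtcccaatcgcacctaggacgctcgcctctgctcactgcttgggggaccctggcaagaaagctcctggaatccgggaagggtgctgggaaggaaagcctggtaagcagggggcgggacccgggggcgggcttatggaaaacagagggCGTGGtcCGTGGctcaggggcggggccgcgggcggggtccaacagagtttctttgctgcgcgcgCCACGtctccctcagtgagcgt
The log2 fold changes of these members were -0.10 (Ssr1), -0.00242 (Ssr3) and -0.13 (Sec63). Those of the 4 members whose windows lacked the letters lay between -0.07 and 0.04. The 95% intervals of all 7 include 0, and a link between the letters and the fold changes was not tested. A match in these windows is a description of sequence and no evidence of binding.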

How the data were processed

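RNA from 3 Pdx1Cre and 3 Pdx1Cre;Sirt1ex4F/F pancreata was hybridized to 1 array each. The deposited log2 values were made by the authors in R with oligo, by Robust Multi-array Average: background correction, then quantile normalization, then a summary of the probes of each transcript cluster. Versions of oligo are not given here. Single-probe intensities were not used here.

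Of 41345 clusters, 23521 had 1 gene symbol in the platform annotation, 1820 several and 16004 none. The first gave 22180 genes, each by its brightest cluster. Array medians lay between 4.48 and 4.57 and correlations between arrays between 0.974 and 0.984. The groups were compared by limma 3.58.1 under R 4.3.3, as Sirt1-deficient minus control, without covariates, with Benjamini-Hochberg adjustment over all genes. The step was tested on simulated data. The number of arrays limits the precision, and an exact permutation test of 3 against 3 cannot go below p = 0.1. The animals are taken as separate replicates from their labels.

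The members and lists were chosen with earlier results of these data known. Named genes were all members, the genes of each list with p under 0.01 or else the smallest p, and the 5 genes nearest in profile above the dim level. The settings also tried were each array left out, the replicate number as a block, arrays centred on their median, quantile normalization repeated, dim genes left out, a variance trend with robust eBayes, weighted arrays, the mean of a gene's clusters, all clusters and other thresholds.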

Additional observations from a re-analysis of the deposited data

How the results depend on the processing

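None of the 10 members passed at an unadjusted p under 0.01 under any of the 14 other settings (limma), and 123 of 140 member values kept their sign. The median of the members ran from -0.070 to 0.013 with single arrays left out, and was above 0 without the control pancreas 3. The 17 values that changed sign were small. They were 0.06 for Sec61b with the mean of its clusters, 0.00151 for Sec61g and 0.01 for Ssr3 with arrays centred on their median, 0.02 for Ssr3, -0.03 for Ssr4 and -0.01 for Tram1 with a second quantile normalization, and -0.000762 for Sec62 and -0.01 for Ssr4 with array weights. With single arrays left out, the log2 fold change ran from -0.20 to 0.03 for Sec61b, from -0.05 to 0.01 for Sec61g, from -0.02 to 0.09 for Sec62, from -0.03 to 0.04 for Ssr3 and from -0.02 to 0.03 for Ssr4. Ssr2 lay between -0.25 and -0.15 in every setting, and its smallest limma p-values were p = 0.0456 with array weights and p = 0.0114 with the intensity trend (exact permutation p = 0.1).

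Of all genes, 574 passed when all transcript clusters were tested, which enlarges the set, 1477 at an unadjusted p under 0.05 and 3 after adjustment, against 361. With single arrays left out, between 248 and 472 genes passed, and of the surrounding machinery between 1 and 3 genes against 4. The machinery gave 1 when control 1, control 3 or Sirt1-deficient pancreas 1 was left out, and 2 without Sirt1-deficient pancreas 2. Stt3a did not pass with arrays centred on their median (-0.39) or with all clusters tested (-0.40), and Sec11a passed with array weights (-0.32). The cause was not tested.

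The replicate numbers in the titles are not shown to pair the arrays. Same-numbered arrays had correlations of their deviations from the group means of -0.107, 0.164 and 0.163. With the replicate number as a block, 373 of all genes, 0 members and 3 genes of the machinery passed, Stt3a (-0.40) no longer among them. Signal limits Sec61b most, whose mean lay near the dim level.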
